A study of Mus musculus with 6 samples.

Results

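The 17288 regions described here are intronic distal regions of open chromatin that were called in every one of 6 ATAC-seq libraries from the E11.5 face of the wild-type mouse. The peak lists of all libraries were merged where peaks shared at least 1 bp. A merged region was taken if it held a peak of all 6 lists, if its strongest summit lay in an intron and in no exon of a protein-coding gene, and if that summit was more than 10 kb from every protein-coding transcription start site. The peak calls and summits themselves chose the regions, so their presence in all libraries is a description. They made up 4.53% of the 382006 merged regions and 24.7% of the 69940 regions that were called in all 6 lists.

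ATAC-seq uses the Tn5 transposase to insert sequencing adapters into accessible DNA. The libraries were made from nuclei of freshly dissected tissue, and 2 libraries each were labelled nose, maxillary process and mandibular process, the parts that form the nose, most of the upper jaw and the lower jaw. All were wild type and untreated, with the cell type given as mixed, so that a smaller share of cells of a type and lower accessibility per cell cannot be told apart. In the 4 jaw libraries the name of the deposited file stands for the opposite jaw process, so each library is called here by its sample label. Whether both libraries of a label were made from separate embryos is not stated, and p-values therefore measure only the spread between these libraries, which may be technical.

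The 6 lists held 219779 to 299731 summits, and the depth in reads is not known. The list of the library labelled maxillary process, replicate 1, was the shortest. At the promoters of marker genes, within 1 kb of a start site, peaks were called in all 6 lists for 9 of 9 facial mesenchyme genes, 5 of 6 surface epithelium genes and 6 of 6 nasal placode genes. The same held for 5 of 5 neuronal, 3 of 4 muscle and 3 of 4 forebrain genes, but for 1 of 4 endothelial genes, 2 of 6 blood genes, 1 of 5 glia and melanoblast genes and 0 of 4 genes of the second arch and trunk. What these other cell types contributed to the intronic regions was not tested.

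Enhancers are stretches of DNA that bind transcription factors and raise transcription from a promoter that can lie far away. Many of them lie within introns, and an intronic enhancer may act on the gene around it or on a neighbour, as the limb enhancer of Shh in an intron of Lmbr1 does. Open chromatin far from promoters also marks sites of the insulator protein CTCF, which holds chromatin loops in place. In facial mesenchyme, which derives largely from the neural crest, the basic helix-loop-helix factor Twist1 binds E-box motifs such as CAGATG, whereas TFAP2 factors act in neural crest and surface ectoderm. An accessible region is a candidate for such elements, and accessibility alone does not show what it does.

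The sequences of 10 regions are shown as windows that reach 100 bases to each side of the strongest summit, read from the plus strand of GRCm38 (RefSeq). Shown in the following lines are 3 of the 6 regions that ranked highest in every library, and the capitals mark the SP/KLF motif GGGCGG and the ETS motif CCGGAA on either strand. The Gm42906 window lies at chr5:151368591-151368791, the Insr window at chr8:3221075-3221275 and the 3300002I08Rik window at chr2:150311289-150311489.
Gm42906 intron: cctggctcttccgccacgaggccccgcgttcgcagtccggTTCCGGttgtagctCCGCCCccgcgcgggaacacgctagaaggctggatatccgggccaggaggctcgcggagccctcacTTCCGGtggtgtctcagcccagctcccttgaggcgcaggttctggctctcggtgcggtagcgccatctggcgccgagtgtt
Insr intron: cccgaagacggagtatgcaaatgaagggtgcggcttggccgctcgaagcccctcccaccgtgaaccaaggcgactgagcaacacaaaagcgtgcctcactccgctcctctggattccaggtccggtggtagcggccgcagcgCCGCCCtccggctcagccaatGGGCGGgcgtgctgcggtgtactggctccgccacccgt
3300002I08Rik intron: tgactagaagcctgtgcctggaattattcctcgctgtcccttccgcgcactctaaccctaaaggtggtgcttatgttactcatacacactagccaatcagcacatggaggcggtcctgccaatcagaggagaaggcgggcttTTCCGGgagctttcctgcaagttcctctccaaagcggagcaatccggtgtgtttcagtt

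Another 5 windows come from the regions with the largest differences between nose and jaw libraries, since E-box matches were common among the regions lower in nose. In them the capitals mark the E-box CAGATG, the TFAP2 motif GCCNNNGGC, the homeodomain motif TAATTA and the nuclear receptor motif AGGTCA on either strand. The regions lower in nose lie in introns of Ddr2 (chr1:169986278-169986478), Robo1 (chr16:73016845-73017045) and Ntng1 (chr3:109936387-109936587), and those higher in nose in introns of Sox6 (chr7:115615672-115615872) and Umad1 (chr6:8416837-8417037).
Ddr2 intron, lower in nose: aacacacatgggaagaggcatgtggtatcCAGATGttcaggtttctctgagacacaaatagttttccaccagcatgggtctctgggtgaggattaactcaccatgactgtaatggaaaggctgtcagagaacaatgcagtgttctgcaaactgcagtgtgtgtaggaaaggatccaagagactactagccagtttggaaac
Robo1 intron, lower in nose: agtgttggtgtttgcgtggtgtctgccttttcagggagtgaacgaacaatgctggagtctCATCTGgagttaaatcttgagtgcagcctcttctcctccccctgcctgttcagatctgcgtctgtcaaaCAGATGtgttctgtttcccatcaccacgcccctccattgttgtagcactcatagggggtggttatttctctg
Ntng1 intron, lower in nose: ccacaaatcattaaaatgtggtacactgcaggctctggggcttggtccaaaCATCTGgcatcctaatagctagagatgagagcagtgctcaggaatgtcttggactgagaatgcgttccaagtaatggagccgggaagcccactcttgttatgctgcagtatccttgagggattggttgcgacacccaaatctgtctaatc
Sox6 intron, higher in nose: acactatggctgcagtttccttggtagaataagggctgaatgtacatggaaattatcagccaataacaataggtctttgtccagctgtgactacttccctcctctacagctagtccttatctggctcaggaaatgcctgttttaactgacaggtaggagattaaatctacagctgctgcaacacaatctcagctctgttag
Umad1 intron, higher in nose: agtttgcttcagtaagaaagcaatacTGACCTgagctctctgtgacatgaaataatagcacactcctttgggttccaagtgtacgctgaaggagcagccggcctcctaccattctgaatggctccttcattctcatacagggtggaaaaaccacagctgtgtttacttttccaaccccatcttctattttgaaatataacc

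The last pair are from the comparison of the jaw labels, with the same motifs in capitals. The Tbck window (chr3:132713958-132714158) was higher and the Tmeff2 window (chr1:50972675-50972875) lower in the libraries labelled maxillary process. The Tmeff2 window has no match, and neither has the Sox6 window.
Tbck intron, higher in the maxillary label: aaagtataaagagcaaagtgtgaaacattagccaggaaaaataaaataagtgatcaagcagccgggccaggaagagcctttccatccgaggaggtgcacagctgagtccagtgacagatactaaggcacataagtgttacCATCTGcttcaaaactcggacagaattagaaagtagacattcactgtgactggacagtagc
Tmeff2 intron, lower in the maxillary label: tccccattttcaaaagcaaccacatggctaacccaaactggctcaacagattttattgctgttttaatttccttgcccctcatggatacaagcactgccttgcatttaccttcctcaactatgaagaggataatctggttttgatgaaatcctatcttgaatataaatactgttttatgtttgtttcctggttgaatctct

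The intronic regions lay far from start sites. The median distance to the nearest protein-coding start site was 53.0 kb (quartiles 25.4 and 110.0 kb), 27.9% of the regions were over 100 kb away and 252 were over 500 kb away. For 25.3% of them (4374) the nearest start site belonged to another gene than the one whose intron held the region. Of the 17258 regions that could be placed in the longest transcript of their gene, 20.9% were in the first intron, where 19.9% of the eligible intron bases lie. Few regions sat at annotated non-coding transcripts: 408 (2.36%) were within 1 kb of a non-coding start site and 206 (1.19%) had the summit in a non-coding exon.

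The width of a merged region depends on how many lists hold a peak in it. The median width of the intronic regions was 485 bp (quartiles 328 and 677 bp), against 512 bp in the 25699 intergenic distal regions called in all 6 lists and 90 bp in the 59263 intronic distal regions called in 1 list. Summits of the 6 libraries often differed in place within a region. The outermost of the 6 summits were a median of 115 bp apart. All 6 lay within 50 bp of each other in 20.4% of the intronic regions, against 22.05% of the intergenic regions, and 27.5% of the intronic regions had summits over 200 bp apart. Another member of the set lay within 10 kb of 48.0% of them.

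At the 10 kb limit, regions of low and high fold stood on both sides. The 3 regions just inside lay 10001 bp from the start site of Cdkl4 (deposited fold 11.6 to 15.1 over the 6 libraries), 10004 bp from Fbxl4 (6.04 to 13.6) and 10007 bp from Mtbp (3.62 to 6.18). The 3 just outside lay 10000 bp from Fam53b (4.79 to 9.93), 9992 bp from Cyth1 (6.02 to 10.7) and 9988 bp from Sh2d4b (3.86 to 9.34). The deposited fold is the ratio of signal at the summit to local background, computed by the authors in each library alone.

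Intronic distal regions as a class were spread over 124694 merged regions, of which 13.9% were called in all 6 lists, against 14.5% of the intergenic distal regions. Per length of eligible sequence, the regions called in all lists came to 23.9 per Mb of intron and 17.5 per Mb of intergenic DNA. The eligible introns, which are all intron bases over 10 kb from a start site, measured 723 Mb.

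The regions lay in 4550 host genes, of which 1761 held 1 region, 426 held at least 10 and 81 held at least 20. The hosts with the most regions were very long genes, many of them known for synapses or axon guidance. Nrxn3, a synaptic neurexin, held 45 regions, Dlg2, a synaptic scaffold, 44, and Lsamp, a cell adhesion protein of the limbic system, 43. Tenm4 and Tenm2, teneurin adhesion receptors, held 41 and 37, the scaffold gene Magi2 39, and Slit3, a secreted ligand of Robo receptors, 38. The ADP-ribose hydrolase gene Macrod2 held 57, Wwox, an oxidoreductase, 34, and Dnm3, a dynamin, 33. Of all intronic regions, 98.2% also lay inside a RefSeq protein-coding gene, a check added after the data had been seen. For 2 hosts the count rests on very long gene models of GENCODE. Gm20388 held 105 regions but is not in the RefSeq gene table, and of the 46 regions assigned to Fgfr2, a receptor of fibroblast growth factors, 3 lay within its RefSeq span.

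Ranked by density among hosts with at least 5 regions, the leading genes had little eligible intron. Gm44511 had 5 regions (313 per Mb of eligible intron), none of them inside a RefSeq span of that name. Ddc, which encodes dopa decarboxylase, had 14 regions (232 per Mb), Trim71, an RNA-binding ubiquitin ligase of embryonic cells, 6 (209 per Mb), and Vangl1, a planar cell polarity protein, 7 (205 per Mb). Pxylp1, a xylose phosphatase of proteoglycan synthesis, had 10 regions (189 per Mb), Anxa2, a calcium-dependent membrane-binding protein, 5 (186 per Mb), the transcription factor gene Creb3l1 5 (182 per Mb) and the tetraspanin gene Tspan14 5 (178 per Mb). In Ddc all 14 regions lay within 100 kb, and for 7 of them the nearest start site was that of another gene.

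Among genes of facial patterning, the hedgehog transcription factors Gli3 and Gli2 held 17 and 14 regions (68.5 and 68.9 per Mb). The chondrogenic Sox genes Sox6 and Sox5 held 19 and 17 (39.5 and 49.4 per Mb), and the TALE homeodomain genes Meis2 and Meis1 held 11 and 7 (58.1 and 57.04 per Mb). Nfia and Nfib, transcription factors of the NFI family, held 13 and 12. Trps1, a GATA-type repressor of cartilage, and Trp63, a master regulator of stratified epithelium, held 10 each, Runx1 7, Runx2, which is needed for bone formation, 6, Zeb2, a neural crest factor, 4 and the epithelial gene Grhl2 1. Hosts known for enhancers of a neighbour held few or many: Dync1i1, next to Dlx5 and Dlx6, held 15, Fto, which carries elements acting on Irx genes, 12, Mipol1 3, Lmbr1 2 and Lrrk1 2.

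Grouped by function, the density differed between lists of host genes, as the plot of densities by list shows. The 60 regions of TALE homeodomain genes came to 58.8 per Mb of eligible intron, the 121 regions of Wnt pathway genes to 50.1, the 27 of placode and nasal epithelium genes to 47.0 and the 109 of hedgehog pathway genes to 45.1. Cartilage and bone genes held 160 regions (39.3 per Mb), facial mesenchyme factors 187 (35.9 per Mb) and actin and migration genes 494 (37.1 per Mb). The neuronal and synaptic genes held the most regions of any list, 837, at a density of 16.1 per Mb, below the 23.9 per Mb of all eligible introns, and muscle genes held 37 (12.4 per Mb). The muscle value rests on Dmd, the very long dystrophin gene, which holds 11 of these regions in 2.19 of 2.98 Mb, and without it the 26 other regions came to 32.9 per Mb, above that of all eligible introns. The share of intronic distal regions that was called in all 6 lists was 19.7% in TALE homeodomain genes, 17.95% in Wnt pathway genes, 15.1% in muscle genes and 10.5% in neuronal and synaptic genes, against 13.9% over all. The hosts with the most regions in their lists included Gpc6, a glypican gene, with 32 regions. Pknox2, a TALE homeodomain gene, held 20 regions (89.7 per Mb), Tcf7l1, a nuclear effector of Wnt signalling, 17 (113 per Mb), Lgr5, an R-spondin receptor gene, 10 (94.8 per Mb), Tgfbr3, a coreceptor of TGF-beta ligands, 16 (95.6 per Mb), and Bcor, a corepressor gene, 12 (137 per Mb). The actin-associated gene Palld held 25 (74.6 per Mb) and Eya1, a placode gene, 10 (82.0 per Mb), whereas Dmd had a density of 5.02 per Mb. Densities and counts are given here with no test, and some genes stand in more than 1 list.

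**Figure D1:**
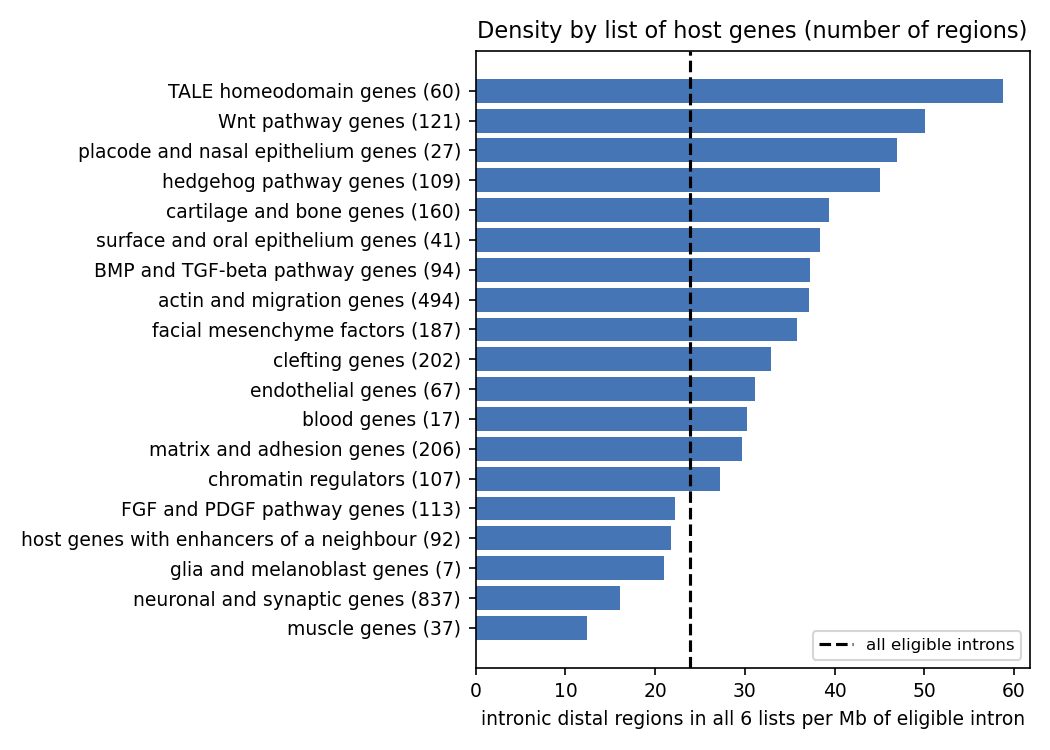
Number of intronic distal regions called in all 6 lists per Mb of eligible intron (horizontal axis) for each of 19 lists of host genes, with the number of regions in brackets; the dashed line is the density over all eligible introns, 23.9 per Mb. TALE homeodomain genes are at the top with 58.8 per Mb and muscle genes at the bottom with 12.4 per Mb, or 32.9 per Mb without Dmd.

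The strength of a region was taken as the percentile of its strongest peak among all peaks of that library's list, by score. The median percentile of the intronic regions was 68.1 and 70.6 in the nose libraries, 61.3 and 72.0 in the libraries labelled maxillary process and 70.4 and 69.9 in those labelled mandibular process. The intergenic regions had 71.2 and 72.3, 63.5 and 74.0, and 71.9 and 72.0, with the labels ordered alike. Over the 6 libraries the intronic regions averaged 68.7 ± 3.84 and the intergenic regions 70.8 ± 3.72 (SD, n = 6 libraries), a difference of -2.11 ± 0.524 percentile points. The intronic regions were lower in 6 of 6 libraries (exact two-sided sign-flip permutation test, p = 0.03125, the smallest that 6 libraries can give). As the libraries read the same 2 sets of regions, p covers only the spread between libraries. It cannot show whether intronic and intergenic regions differ as classes. Ranked by fold in place of score, the difference was -2.13 (exact p = 0.0625).

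**Figure D2:**
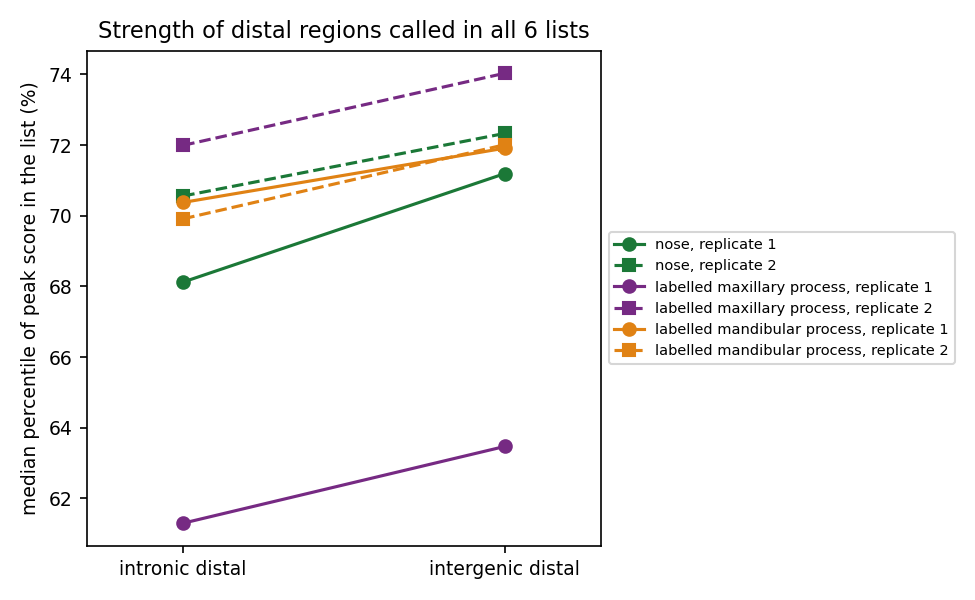
Median percentile of the strongest peak within its own list (vertical axis, starting above 0) for intronic and intergenic distal regions called in all 6 lists; each line is 1 library. All 6 lines rise towards the intergenic regions, and the library labelled maxillary process, replicate 1, lies below the rest at 61.3.

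Strength varied widely among the intronic regions themselves. In 30.7% of them (5306) the deposited −log10 q was at least 5 in all 6 lists, in 10.7% (1851) at least 10, and in 44.4% (7676) it was under 3 in at least 1 list. The median deposited fold was 5.78 and 5.88 in nose, 5.43 and 6.71 in the maxillary label and 6.16 and 5.84 in the mandibular label. A group of 532 regions (3.08%) stood at or above the 90th percentile in every library, and 35 of these were within 1 kb of a non-coding start site.

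Among the 6 regions with the highest value in their weakest library were those of 3300002I08Rik, Nol4, Uggt2, Gm42906 and Insr, named by their host genes. Intron 2 of Insr, the insulin receptor gene, held a region at chr8:3220720-3221906 with 11.2 and 11.2 in nose, 11.9 and 10.8 in the maxillary label and 12.3 and 11.2 in the mandibular label. The labels overlapped in these values. The Gm42906 region (chr5:151368199-151369235) had its summit 0.018 kb from the start of the non-coding transcript 1700028E10Rik, and its folds were 12.4 and 12.2 in nose, 12.8 and 12.6 in the maxillary label and 12.8 and 12.1 in the mandibular label. Its window holds matches to both the ETS and the SP/KLF motif, as printed above. The Uggt2 region (chr14:119007404-119007780) lies in intron 33 of a glucosyltransferase gene, 69.7 kb from the start site of the neighbour Dnajc3.

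In base composition the intronic regions stood close to the intergenic ones. GC content in the windows around each library's own summits averaged 48.6% ± 0.0824 in intronic regions and 48.5% ± 0.0748 in intergenic regions (SD, n = 6 libraries). The difference of 0.109 percentage points is given without a test, since the 6 libraries read the same regions of the genome, and it is small beside the SD of 6.55 points between intronic regions at their strongest summits. The 532 strongest intronic regions had a mean GC content of 53.4% at their strongest summits, against 48.6% over all intronic regions.

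For 21 motifs, searched on both strands, the shares of windows with a match differed by less than 2 percentage points between intronic and intergenic regions. The widest difference was that of the SP/KLF motif GGGCGG, found in many promoters, with 7.06% ± 0.0678 of intronic against 8.87% ± 0.0628 of intergenic windows (SD over 6 libraries, which covers only shifts of the summit within the same regions; difference -1.80). The E-box CAGATG had a match in 26.03% of intronic against 24.9% of intergenic windows, a difference of 1.08 points. The MEIS motif TGACAG was at 16.8% against 16.0%, the NFI site TTGGC at 32.1% against 33.0%, and the ETS motif CCGGAA at 2.62% against 3.43%. These shares describe 2 fixed sets of sequences, and no test is given for them.

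Larger differences in motif content separated the intronic regions from intronic distal regions called in 1 list, at the strongest summit. The CTCF motif matched 5.11% of the intronic regions called in all lists, against 0.378% of those called in 1 list. The E-box CAGATG matched 26.3% against 20.05%, and the E-box CAGCTG 20.1% against 14.3%. Over all 382006 merged regions the shares were 1.54% for CTCF, 20.7% for CAGATG and 15.8% for CAGCTG, and for the other motifs described here 6.40% for TFAP2, 5.11% for the homeodomain motif, 10.4% for the nuclear receptor motif, 16.3% for MEIS, 2.37% for PBX, 15.3% for RUNX, 3.84% for LEF/TCF, 11.97% for CAGGTG, 31.1% for TTGGC, 3.32% for ETS and 7.59% for SP/KLF. Number of lists and peak strength chose these groups, so the shares are given without a test.

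Signal strength of the intronic regions was more alike between libraries of a label than between labels. Across the 17288 regions, Pearson's r of the normalized log2 fold was 0.710 to 0.765 for the 3 pairs of libraries with the same label and 0.539 to 0.611 for the 12 pairs with different labels. The median SD of a region was 0.22 within labels and 0.28 over all 6 libraries on the log2 scale. Regions within a library are not independent replicates, and the correlations describe these libraries.

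To ask which intronic regions differ in strength between nose and jaw, the deposited fold was compared in a limma fit over all 69940 regions called in all lists. At an adjusted p under 0.05 (Benjamini-Hochberg), 228 intronic regions were higher and 256 lower in the nose libraries than in the 4 jaw libraries. Together these were 484 or 2.80% of the 17288, beside 2.15% of all regions tested (0.967% higher and 1.18% lower). In the intergenic distal regions 875 or 3.40% were called. The median size of a called difference was 0.87 on the log2 scale, a 1.83-fold difference. In 480 of the 484 the nose and jaw libraries did not overlap, as in 1488 of the 1503 called among all regions tested. Without regard to the test, 4024 intronic regions had nose libraries that did not overlap the jaw libraries, 23.3% against 20.5% of all regions tested. A region without a peak in any single library is outside the set, so that differences between presence and absence are not among these values.

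The count of 484 depended on every library. It was 95 without the mandibular label replicate 1 and 129 without the mandibular label replicate 2. Leaving out either maxillary label library or either nose library gave 0 calls in the limma fit, with 2569 to 3636 intronic regions at an unadjusted p under 0.05. Restricted to regions with a −log10 q of at least 5 in all lists, 24 of 5306 (0.452%) were called, beside 89 of 31417 (0.283%) of all regions tested.

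Among the regions higher in nose, the largest difference lay in intron 2 of Nxph1, which encodes a secreted ligand of neurexins, at chr6:9124318-9124883. Its deposited fold was 12.4 and 13.9 in nose, against 3.62 and 7.50 in the maxillary label and 4.28 and 3.34 in the mandibular label (log2 difference 1.58 ± 0.23 SE, limma adjusted p = 0.0127). The region in intron 14 of Unc5d, a netrin receptor gene, at chr8:28684127-28684487, lay 535 kb from the start site and had 11.1 and 13.1 in nose, against 3.59, 4.34, 6.18 and 3.81 in the jaw libraries (log2 difference 1.52). In both regions every nose library was above every jaw library. Another region, in intron 7 of Sox6, a transcription factor of cartilage formation, at chr7:115615618-115616203, had 12.9 and 11.99 in nose, against 5.43 and 5.53 in the maxillary label and 3.80 and 4.29 in the mandibular label (log2 difference 1.40 ± 0.17, limma adjusted p = 0.0122). Its window, printed above, has no match to the E-box CAGATG. The other regions of this group were in introns of Slc5a8, a monocarboxylate transporter gene (log2 difference 1.47), Umad1 (1.36) and Pkhd1, the gene of a protein of primary cilia (1.35), with nose folds of 9.96 to 13.3 and jaw folds of 3.51 to 6.09. The Umad1 region lay 92.7 kb from its nearest start site, that of Glcci1.

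Among the regions lower in nose, the leading one lay in intron 14 of Ddr2, a collagen receptor kinase gene, at chr1:169986063-169986575, with the start site of Hsd17b7 nearest. Its fold was 3.68 and 3.36 in nose, against 7.85 and 10.3 in the maxillary label and 9.51 and 9.06 in the mandibular label (log2 difference -1.35 ± 0.17 SE, limma adjusted p = 0.0122). The region in intron 24 of Robo1, a Slit receptor gene, at chr16:73016662-73017316, had the same 3.68 and 3.36 in nose, against 9.29, 10.2, 8.65 and 7.50 in the jaw libraries (log2 difference -1.29). The deposited nose values of the Ddr2, Gap43 and Robo1 regions are identical. The Ddr2 and Robo1 windows hold the E-box CAGATG, Robo1 at 2 places, as printed above. The windows of the Gap43, Arhgap24 and Slc7a11 regions, lower in nose as well, have no match to it. The region in intron 2 of Ntng1, a netrin family gene of axons, at chr3:109936093-109936600, had 3.56 and 3.35 in nose, against 7.89, 10.1, 9.18 and 6.69 in the jaw libraries (log2 difference -1.28). The remaining regions of the group were in introns of Gap43, a growth cone gene (-1.33), Arhgap24, the gene of a GTPase-activating protein (-1.29), and Slc7a11, a cystine transporter gene (-1.27), the last outside every RefSeq protein-coding gene and with its nearest start site at Pcdh18, 228 kb away. Each of the 12 regions higher or lower in nose lost its call in 4 of the 6 fits with a library left out.

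Between the jaw labels, 132 intronic regions were higher and 106 lower in the libraries labelled maxillary process than in those labelled mandibular process in the same limma fit, 238 or 1.38% of the 17288, beside 0.981% of all regions tested (0.526% higher and 0.455% lower). The median size of a called difference was 1.08 on the log2 scale, a 2.11-fold difference. Groups that did not overlap were found in 7921 intronic regions, 45.8% against 41% of all regions tested. With 2 libraries a label, leaving out any of the 4 jaw libraries gave 0 calls in limma, with 2528 to 3050 intronic regions at an unadjusted p under 0.05, and leaving out a nose library gave 198 or 218. At a −log10 q of at least 5 in all lists, 7 of 5306 (0.132%) were called, beside 26 of 31417 (0.0828%) of all regions tested. Of the intronic regions, 17 were called in both comparisons, which share the jaw libraries, and 705 (4.08%) in at least 1. The same counts over all regions tested were not made.

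The largest called difference between the jaw labels was lower in the maxillary label and lay in intron 4 of Tmeff2, a transmembrane protein gene with follistatin-like domains, at chr1:50972413-50973128. Its fold was 3.62 and 3.55 in the maxillary label, against 12.4 and 13.3 in the mandibular label, and 9.27 and 7.19 in nose (log2 difference -1.86 ± 0.21 SE, limma adjusted p = 0.0157). The maxillary peaks were weak, with a −log10 q of 2.01 and 2.55. A region in intron 28 of Adamts20, a secreted metalloprotease gene, at chr15:94294095-94294397, had 4.23 and 3.95 in the maxillary label, against 14.4 and 11.9 in the mandibular label (log2 difference -1.70). Its nose folds of 4.204 and 3.36 were close to those of the maxillary label, and it was also called lower in nose (log2 difference -0.93, limma adjusted p = 0.0281). Further regions lower in the maxillary label lay in introns of Ptprk, a receptor tyrosine phosphatase gene (-1.56), Mapk10, a stress kinase gene (-1.45), Zfp800, a zinc finger gene (-1.41), and Usp29, a ubiquitin protease gene (-1.40). At Zfp800 the nose folds of 9.99 and 11.2 were instead close to the mandibular label, with 12.4 and 10.01, against 4.23 and 4.34 in the maxillary label.

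Higher in the maxillary label, the leading region lay in intron 7 of Fggy, a carbohydrate kinase gene, at chr4:95759068-95759975, with folds of 9.89 and 12.2 in the maxillary label, against 3.33 and 3.34 in the mandibular label, and 5.26 and 8.63 in nose (log2 difference 1.71 ± 0.23 SE, limma adjusted p = 0.0157). That in intron 5 of Tbck, at chr3:132713851-132714746, had 9.98 and 14.4 in the maxillary label, against 4.28 and 3.81 in the mandibular label, and 4.204 and 5.27 in nose (log2 difference 1.58). Both maxillary libraries were above the other 4. The mandibular peaks of the Fggy region were weak, with a −log10 q of 1.84 and 1.80. The group also held regions in introns of Nrk, a kinase gene (1.61), Prima1, the gene of the membrane anchor of acetylcholinesterase (1.52), and Dtna, a dystrobrevin gene (1.48). A region of Ntng1 at chr3:110022807-110023184, some way from the one lower in nose, had 10.3 and 8.70 in the maxillary label, against 3.80 and 2.94 in the mandibular label (log2 difference 1.46), with 10.7 and 7.83 in nose. The 2 Ntng1 regions thus had their low values under different labels.

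**Figure D3:**
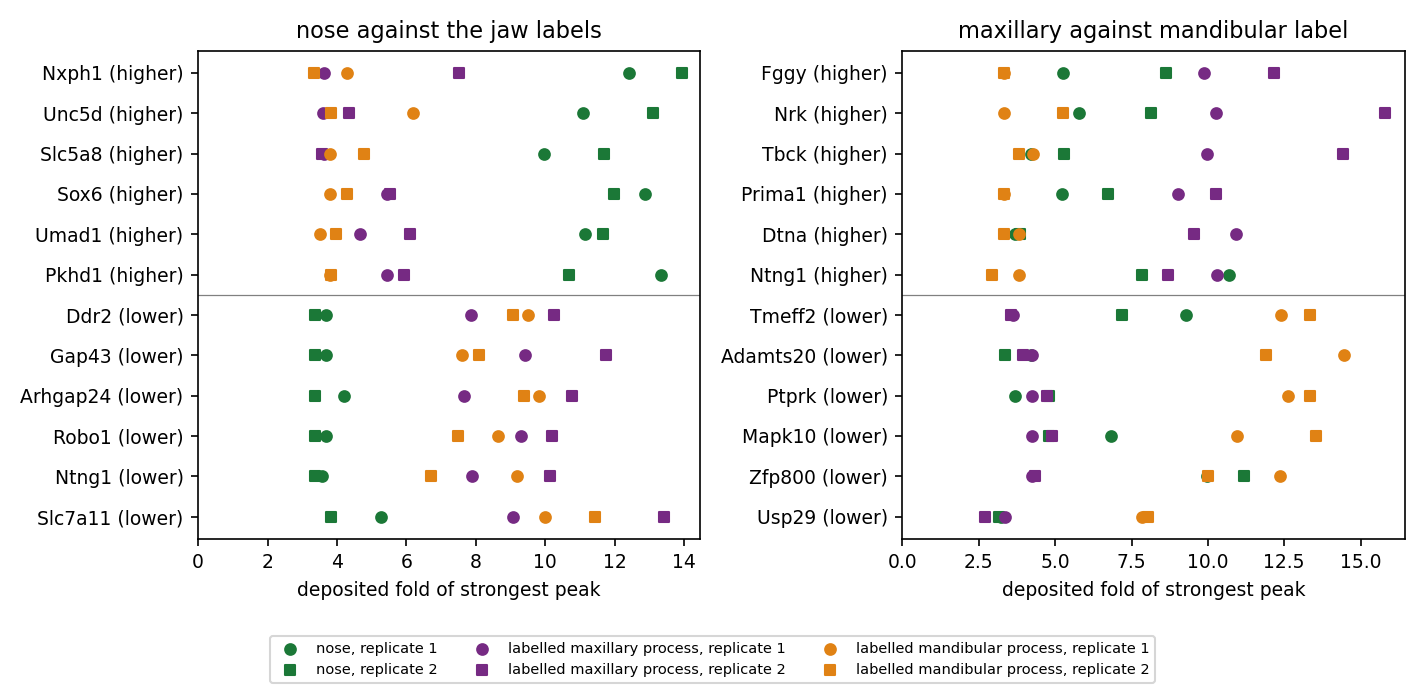
Deposited fold of the strongest peak (horizontal axis) in each of the 6 libraries for the 6 intronic regions with the largest called differences in each direction, for nose against the jaw labels (left) and the maxillary against the mandibular label (right); colours are labels and shapes replicates. In the Nxph1 row the nose libraries stand at 12.4 and 13.9, and in the Tmeff2 row the mandibular label stands at 12.4 and 13.3.

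The calls within gene lists stand beside 2.80% of all intronic regions and 2.15% of all regions tested that were called between nose and jaw. Facial mesenchyme factors held 2 regions higher and 3 lower in nose among 187 (2.67% called), cartilage and bone genes 3 higher and 0 lower among 160 (1.88%), and actin and migration genes 4 higher and 9 lower among 494 (2.63%). Neuronal and synaptic genes held 8 higher and 12 lower among 837 (2.39%). These shares are near the background. Other lists stood further from it on few calls, and none was tested. Placode and nasal epithelium genes had 2 calls among 27 (7.41%), surface and oral epithelium genes 3 among 41 (7.32%), and chromatin regulators 5 among 107 (4.67%). Endothelial genes had 3 among 67 (4.48%) and matrix and adhesion genes 9 among 206 (4.37%). Lower shares were 1 among 202 (0.495%) in clefting genes, 1 among 113 (0.885%) in FGF and PDGF pathway genes and 1 among 94 (1.06%) in BMP and TGF-beta pathway genes. The 17 regions of blood genes, 37 of muscle genes and 7 of glia and melanoblast genes held no call, and they are too few to be set against that background. The median nose minus jaw difference was 0.09 for TALE homeodomain genes (1 higher and 1 lower among 60) and -0.036 for hedgehog pathway genes (2 higher and 1 lower among 109), beside 0.00063 over all intronic regions. Single hosts stood further out. The 11 regions of Meis2 had a median of 0.45 with 1 called higher, the 5 regions of Frem2, a basement membrane gene, a median of 0.49 with 2 called higher, and the 17 regions of Gli3 a median of -0.25 with none called. Between the jaw labels, neuronal and synaptic genes held 7 regions higher and 5 lower in the maxillary label (1.43%), actin and migration genes 2 higher and 5 lower (1.42%), and matrix and adhesion genes 5 higher and 1 lower among 206 (2.91%), beside 1.38% of all intronic regions and 0.981% of all regions tested.

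Motif content differed between the intronic regions called higher and lower in nose, as the plot of motif shares by call shows. Windows lay at the strongest summit of each region, so the library with the strongest peak set the place that was read. The groups are therefore not read at places chosen alike, and what this adds to the shares was not tested. The E-box CAGATG matched 21.5% of the 228 regions higher in nose (95% Wilson interval 16.7 to 27.3%) and 41.8% of the 256 lower in nose (35.9 to 47.9%). Of the 16583 intronic regions called in neither comparison, 26.1% had a match. The TFAP2 motif GCCNNNGGC went the other way, with 12.7% (9.004 to 17.7%) of the regions higher in nose and 3.52% (1.86 to 6.55%) of those lower, against 6.66% of the uncalled. The nuclear receptor motif AGGTCA matched 15.4% (11.2 to 20.6%) of the regions higher in nose and 6.64% of those lower, against 9.10% of the uncalled. For the homeodomain motif TAATTA the intervals overlapped, with 9.21% (6.10 to 13.7%) of the regions higher in nose and 4.69% (2.70 to 8.01%) of those lower, against 5.45%. The intervals cover counting error only. In the intergenic distal regions, CAGATG matched 19.8% of those higher and 37.4% of those lower in nose, the TFAP2 motif 7.57% and 4.88%, and the nuclear receptor motif 11.49% and 7.72%. The homeodomain motif stood the other way there, with 5.48% of those higher and 5.89% of those lower in nose.

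**Figure D4:**
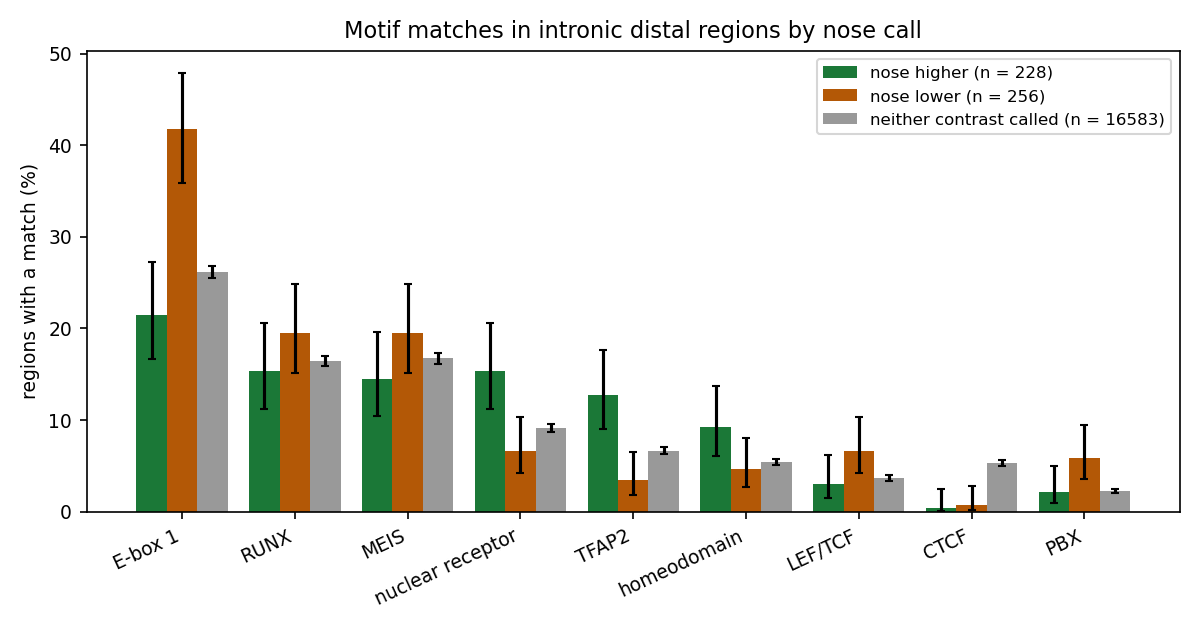
Percentage of intronic distal regions with a match to each motif (vertical axis) among regions higher in nose, lower in nose and called in neither comparison; bars are shares and error bars 95% Wilson intervals. E-box 1 is CAGATG, which matched 21.5%, 41.8% and 26.1% of the 3 groups.

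Between the jaw labels, the RUNX motif TGTGGT matched 12.9% of the 132 regions higher in the maxillary label and 26.4% of the 106 lower in it, against 16.5% of the uncalled. The LEF/TCF motif CTTTGAT matched 3 regions or 2.27% (0.776 to 6.47%) and 9 regions or 8.49% (4.53 to 15.4%), against 3.67%. For both motifs the intervals overlapped, and they cover counting error only. The windows lay at the strongest summit here as well. The E-box CAGGTG matched 15.9% (10.6 to 23.1%) of the regions higher in the maxillary label and 0.943% (0.167 to 5.15%) of those lower in it, against 11.52%. A CAGGTG match can lie within a CTCF match, but a CTCF match was found in 1 of the 132 regions and 0 of the 106.

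The same motifs were then followed in every library over all 17288 intronic regions, whether called or not, as the mean normalized log2 fold of regions with a match minus that of regions without. This measure was chosen after the shares by call had been seen, and matches were again sought at the strongest summit. For the E-box CAGATG, which matched 4551 regions, the offset was -0.0094 and -0.02 in the nose libraries, against 0.052 and 0.053 in the maxillary label and 0.069 and 0.069 in the mandibular label. Nose thus lay below all jaw libraries, by 0.08 on the log2 scale. For the TFAP2 motif the offset was 0.055 and 0.047 in nose, against -0.0016 and -0.013 in the maxillary label and -0.016 and -0.011 in the mandibular label, a difference of 0.06. The nuclear receptor motif had -0.019 and 0.040 in nose, of opposite sign, against -0.093 to -0.030 in the jaw libraries. For the homeodomain motif nose (-0.014 and -0.022) overlapped the jaw libraries (-0.066 to -0.010). The exact permutation p was 0.0667 for CAGATG and TFAP2, the smallest that the 15 divisions of the libraries into 2 and 4 allow (adjusted p = 0.350 over 21 motifs), so this design cannot pass 0.05, and no motif had a lower adjusted p. Motifs are not independent of each other, and nose lay apart from all jaw libraries for 8 of the 21. Among these was LEF/TCF, with -0.075 and -0.092 in nose and a nose minus jaw difference of -0.076. PBX was another, with a difference of -0.081. In the intergenic distal regions the offsets differed by -0.08 for CAGATG and 0.05 for TFAP2.

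Offsets also differed between the jaw labels. For the PBX motif TGATTGA, with 392 matching regions, the offset was -0.018 and -0.0016 in the maxillary label, against 0.047 and 0.046 in the mandibular label, and -0.059 and -0.066 in nose. For LEF/TCF it was -0.054 and -0.035 in the maxillary label, against 0.029 and 0.028 in the mandibular label, and for RUNX 0.0033 and -0.016 against 0.047 and 0.044. In each of these motifs both libraries of the mandibular label lay above both of the maxillary label. Other motifs went the other way. For CAGGTG the offset was -0.013 and 0.017 in the maxillary label, against -0.096 and -0.073 in the mandibular label. For CAGCTG it was 0.038 and 0.050 against 0.0050 and 0.011, and for the homeodomain motif -0.010 and -0.028 against -0.066 and -0.063. These jaw differences were not tested.

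**Figure D5:**
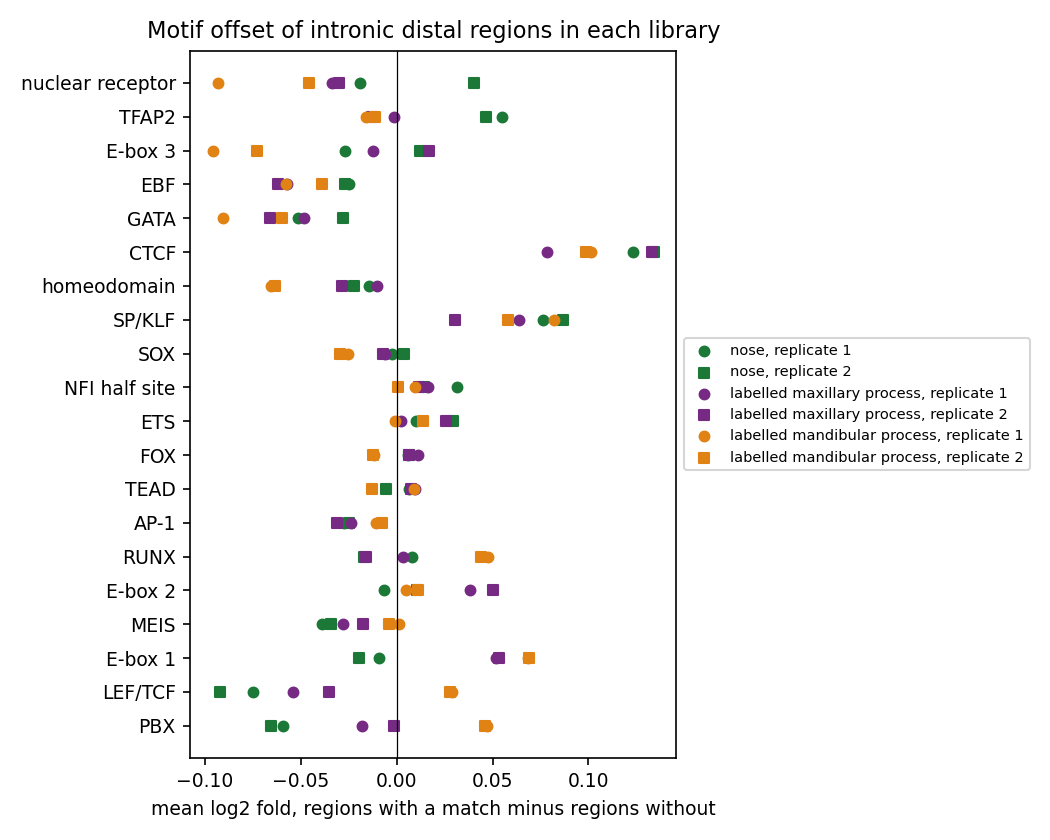
Mean normalized log2 fold of intronic distal regions with a motif match minus that of regions without (horizontal axis) in each library, for 20 motifs ordered by the nose minus jaw difference; colours are labels and shapes replicates, and the NFI palindrome with 23 matches is left out. E-box 1 (CAGATG), E-box 2 (CAGCTG) and E-box 3 (CAGGTG) are the E-boxes; the nose libraries lie left of all jaw libraries for E-box 1 and right of them for TFAP2.

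The 884 intronic regions with a CTCF match were rarely called as different between labels. Whether a match is bound by CTCF is not known from these data. Of these, 3 (0.339%) were called between nose and jaw and 1 (0.113%) between the jaw labels, against 481 (2.93%) and 237 (1.44%) of the 16404 regions without a match. All 6 summits lay within 50 bp in 36.7% of the regions with a match, against 19.6% of those without. Their median fold was 6.31 and 6.67 in nose, 5.54 and 7.18 in the maxillary label and 6.66 and 6.34 in the mandibular label, against 5.77 and 5.82, 5.41 and 6.67, and 6.12 and 5.80 in regions without. The CTCF motif matched a smaller share of the strongest group, 3.20% of the 532 regions against 5.11% of all intronic regions, whereas the SP/KLF motif matched 19.2% of the 532, against 7.19% over all intronic regions.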

How the data were processed

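Peak lists of 6 bulk ATAC-seq libraries were used. Bowtie2, SAMtools and mm10 are listed in the submitters' processing notes, but versions and the peak caller are not given in the sources used here. The authors deposited for each summit a score, a fold (ratio over background), a −log10 p-value and a −log10 q-value. The deposited score repeats the −log10 p, multiplied by 10 and cut to whole numbers.

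Peaks were merged at 1 bp and placed on the GENCODE M21 basic annotation (21851 protein-coding genes with a start site). The log2 fold of each library's strongest peak in a region was quantile normalized, with no pseudocount, and fitted with limma 3.58.1 in R 4.3.3, with a mean per label and Benjamini-Hochberg adjustment over 69940 regions. The fit and the motif search were first tested on simulated data. Strength was compared within libraries by exact sign-flip permutation. Other steps used Python 3.11.15 with pandas 2.3.3, numpy 2.4.6, scipy 1.17.1 and, for plots, matplotlib 3.10.9. The regions, gene lists, motifs and tests were chosen with earlier results of these data known.

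Named regions were the 6 with the highest lowest-library percentile, the 6 with the largest called and non-overlapping differences per comparison and direction, and 3 on each side of the 10 kb limit. Named hosts were the 12 with the most regions, the 8 densest with at least 5, leading hosts of each list and 20 fixed genes. Frem2 belongs to the leading hosts of its list. Motifs beside the 5 that differed most from intergenic regions were named after their shares had been seen. Alternatives covered the merging, distance, normalization, peak choice, a filter on low values, the replicate block and each library left out. Results for a few genes that these rules would name are not reported here.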

Additional observations from a re-analysis of the deposited data

Results flagged for a closer look

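The median strength percentile of the intronic regions was 61.3 in the library labelled maxillary process, replicate 1, far below the 68.1 to 72.0 of the other 5 libraries by Dixon's criterion. This library had the shortest list of peaks. The difference in GC content between intronic and intergenic regions was 0.069 percentage points in the same library, below the other 5. Chance sets apart about 1 in 20 such groups, and 4 were examined.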

How the results depend on the processing

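The number of intronic regions in all lists was 9609 with peaks of −log10 q of at least 3, 5306 at 5, and 10702 where the peaks of each library had to cover at least 0.5 of the region or 200 bases. Under the other settings it stayed within 1.5 times of 17288, and with each library left out it was 18126 to 19940. The cause of differences between settings was not tested.

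Between nose and jaw labels, 484 intronic regions were called, against 935 with median centring, 150 with the summit nearest to the strongest one, 24 at a −log10 q of at least 5, 4024 by groups that do not overlap, and 0 to 129 with a library left out. Between the jaw labels, 238 were called, against 605, 59, 7 and 7921 under the same settings, 430 with a trend in the prior, and 0 to 218 with a library left out. Over all regions tested, median centring called 4.03% between nose and jaw and 2.41% between the jaw labels. The intronic shares were 5.41% and 3.50%. With the nearest summit, all regions had 0.869% and 0.317%, and intronic regions 1.01% and 0.396%. The 24 named regions kept their call in every refit of all 6 libraries that they entered, and lost it only with a library left out. No named region entered the refit at a −log10 q of at least 5. Some, such as Nxph1 and Dtna, did not enter that with the nearest summit.

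Whether libraries with the same replicate number were prepared together is not stated. Deviations of replicates 1 correlated at 0.0070 to 0.065 between labels, which cannot show whether they were. With the replicate block, 632 intronic regions (3.66%) were called between nose and jaw, beside 2.78% of all regions tested. Between the jaw labels 400 (2.31%) were called, beside 1.61%.

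Leaving out a library, the strength difference was -2.23 to -1.92, which 5 libraries cannot bring past 0.05, and the GC difference 0.105 to 0.117. Ranked by fold, the strength difference was -2.13. The planned sign-flip test of motif shares passed for 16 of 21 motifs, 0 with 50 bases on each side and 0 with a library left out, but as the libraries share their regions it says nothing of the region classes, and it is not used. Depth in reads is unknown, and weak peaks limit the comparisons: 44.4% of the regions had a −log10 q under 3 in at least 1 list.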
